A study of Mus musculus with 15 samples.

Results

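Binding of Sp7 was compared with binding of Dlx5 in MC3T3-E1, a line of pre-osteoblasts from mouse calvaria, from 4 FLAG ChIP-seq peak lists, 2 for each factor, among the 15 samples of the series. The cells, at passages 5 to 10, had been kept for 1 week in osteogenic medium with recombinant human BMP2 at 10 ng/ml, beta-glycerophosphate at 10 mM and ascorbic acid phosphate at 50 ug/ml. The FLAG M2 antibody was used for every pulldown, and all 4 lists were called against the same input library. The labels give neither the way the tagged proteins were expressed nor their level, and do not say whether replicates were separate cultures. Members were regions: merged peaks that hold a peak of both replicates of a factor and no peak of the 1 GFP control library of the same line. There were 5018 Sp7 regions and 23682 Dlx5 regions, and 76 and 115 further regions were left out because they met a GFP peak.

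Sp7, also called Osterix, is a zinc finger factor of the Sp family that osteoblasts need to differentiate. Dlx5 is a homeodomain factor of the developing skeleton, and homeodomains bind AT-rich DNA, while most Sp proteins bind GC-rich boxes. The title of the series describes Sp7 as a co-factor of Dlx proteins, so the comparison asks how often, how closely and at which kind of site both are found. A further 3 groups of 2 lists each served as readouts at these regions. They were Sp7 in osteoblasts taken from the calvaria of C57BL/6 mice at postnatal day 1, with the genotype Sp7-BioFL/BioFL (2097 regions, clear of a wild-type FLAG control), a mutant labelled Sp7mut (8201 regions) and the zinc finger factor Sp1 (8937 regions). Sp7mut and Sp1 were made in MC3T3-E1 cells under the same culture conditions and called against a second input library, so input and factor cannot be told apart where Sp7mut or Sp1 is set against Sp7, Dlx5 or primary Sp7.

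The lists differed in length more between the Sp7 replicates than between those of Dlx5. Sp7 list 1 had 18624 peaks and list 2 had 6063, while the Dlx5 lists had 30234 and 39749. Sp7 peaks had median widths of 164 and 163 bp, and Dlx5 peaks of 178 and 173 bp. The deposited values are positions only, so the depth behind a peak is unknown. Rows are not in genomic order, and no source states what orders them. Regions were placed by their row, as a percentage of the list and averaged over the replicates, with place 1 at the start.

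Nearly every early Sp7 region was also a Dlx5 region, and the share declined along the list. Of all Sp7 regions 4236 (84.4%, 95% Clopper-Pearson interval 83.4 to 85.4, counting error only) overlapped a Dlx5 region, and 782 did not. In the first 10% of Sp7 regions the share was 98.0%, in the next 10% 96.4%, and from the fourth to the seventh 10% it lay between 83.5% and 85.7%. It was 68.1% and 71.7% in the last parts. The share varied from 79.7% on chromosome 11 to 95.2% on chromosome X over 20 chromosomes, with 21 Sp7 regions on chromosome X.

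Seen from Dlx5, the share also declined along the list. Of the 23682 Dlx5 regions 4256 (18%, interval 17.5 to 18.5) met an Sp7 region. The share was 65.4% in the first 10% of Dlx5 regions, 30.7% in the second and 20.4% in the third, and it fell at every further step to 5.07% in the last. Within the first 474 Dlx5 regions, 90.5% met an Sp7 region. The Sp7 list holds far fewer regions than that of Dlx5, which limits how many Dlx5 regions can meet one, so the steepness of the 2 curves is not compared.

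**Figure D1:**
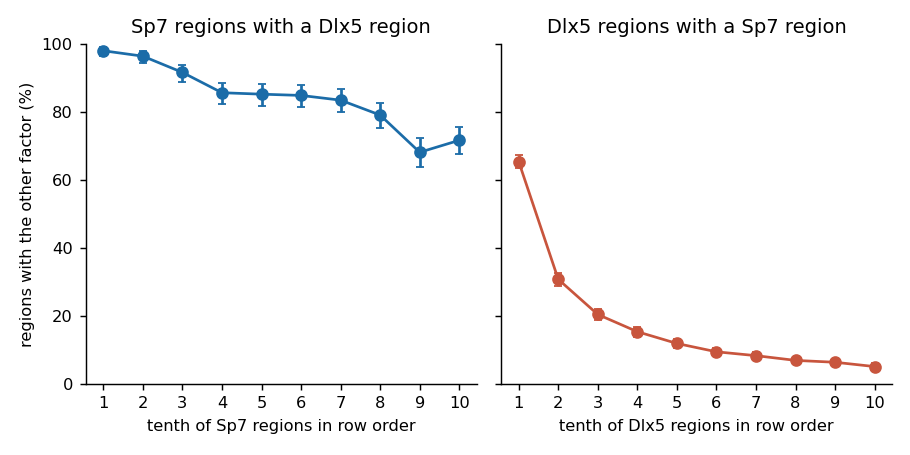
The vertical axis gives the percentage of regions that overlap a region of the other factor, with 95% Clopper-Pearson intervals, and the horizontal axis gives successive 10% parts of the Sp7 regions (left) and Dlx5 regions (right) in row order. The Sp7 curve goes from 98.0% to 71.7%, and the Dlx5 curve drops from 65.4% to 30.7% in the first step and reaches 5.07%.

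Few Sp7 regions lacked Dlx5 altogether. Of the 782 without a Dlx5 region, 240 held a peak of Dlx5 list 1 only, 239 a peak of list 2 only and 74 peaks of both lists that made up no control-free Dlx5 region overlapping them. No Dlx5 peak of either list met 229 of them (29.3%). With a peak of either list taken as enough, 95.4% of Sp7 regions met Dlx5. Regions without Dlx5 also lay close to it: 215 of 782 (27.5%) had a Dlx5 region within 1 kb and 420 (53.7%) within 10 kb. The reverse case differed. Among the 19426 Dlx5 regions without an Sp7 region, 12429 (64.0%) had no Sp7 peak of either list, and 6466 (33.3%) had a peak of the longer Sp7 list 1 only. Of these 19426 regions 3.40% had an Sp7 region within 1 kb and 14.8% within 10 kb. Dlx5 has the longer lists, and nearness to a Dlx5 region was not set against their length.

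At equal length, single lists of the same factor overlapped more than lists of different factors. Over the first 1000 rows, clear of GFP peaks, Sp7 replicates overlapped at 71.9% and Dlx5 replicates at 70% (mean of both directions). The 4 pairs of an Sp7 with a Dlx5 list gave 41.7% to 57.8%. Over the first 5000 rows the replicates gave 63.1% and 68.8%, and the pairs of factors 35.7% to 48.8%. At 500, 1000, 2500 and 5000 rows alike, both replicate values lay above all 4 values between factors. The 2 Sp7 lists did not stand equally near to Dlx5: list 2 met Dlx5 list 1 at 57.8% and Dlx5 list 2 at 52.9% over the first 1000 rows, whereas list 1 met them at 50.2% and 41.7%. An exact permutation test (two-sided) of the 2 lists of a factor against the other 2 has 0.333 as its smallest possible p, so differences are given against the spread over lists, with no test.

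**Figure D2:**
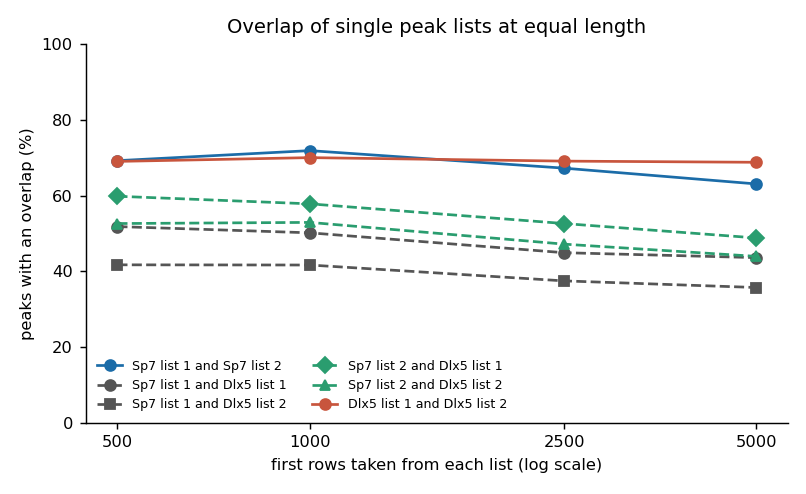
The vertical axis gives the percentage of peaks that overlap a peak of the paired list (mean of both directions), and the horizontal axis gives the number of rows taken from the start of each list, on a log scale. Solid lines join replicates of a factor, dashed lines join an Sp7 list with a Dlx5 list, in grey for Sp7 list 1 and green for list 2. Both replicate lines stay at 63.1% or higher, and all 4 dashed lines stay at 59.8% or lower.

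Regions that were early for one factor and not for the other differed in what else met them. Among the first 1000 regions of each factor, 552 (55.2%) Sp7 regions met an early Dlx5 region. Of these, 64.7% were Sp7 regions in primary osteoblasts, where all Sp7 regions gave 16.6%. Sp1 met 9.06% of them, where all Sp7 regions gave 30.3%. A further 448 Sp7 regions were early without an early Dlx5 region, and 420 of them met Dlx5 later in its list. Of these 448, 23.0% were primary Sp7 regions and 47.3% were Sp1 regions. In turn, 447 Dlx5 regions were early without an early Sp7 region, and 276 met Sp7 further down. Of these 447, 36.0% were primary Sp7 regions, where all Dlx5 regions gave 6.12%, and 6.49% were Sp1 regions, where all Dlx5 regions gave 11.6%. The share of primary Sp7 fell along both lists, so all regions are no background of equal position. Over the first 1004 Sp7 regions, primary Sp7 met 45.9% and Sp1 26.3%. Over the first 2369 Dlx5 regions, a longer stretch, they met 33.3% and 8.19%. Both classes early for a single factor lay below the 64.7% of primary Sp7 at Sp7 regions early for both. Between early Dlx5 regions without early Sp7 and early Sp7 regions without early Dlx5, the shares of primary Sp7 had 95% intervals of 31.6 to 40.7% and 19.2 to 27.2%, which cover counting error only. Among the first 500 regions these intervals overlapped, at 41.6 to 55.2% and 32.2 to 45.5%. Sp7mut met 97.6%, 91.3% and 68.0% of the 3 classes in the order above, where it met 69.6% of all Sp7 regions and 23.7% of all Dlx5 regions. It met 94.8% of the first 1004 Sp7 regions and 67.5% of the first 2369 Dlx5 regions.

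Sp7 regions with and without Dlx5 were then compared at matched row position. The Sp7 regions were divided in row order into 5 equal parts, and the difference between the classes was averaged over the parts, weighted by the smaller class. Before matching, 19.2% of Sp7 regions with Dlx5 and 2.17% (17 of 782) of those without were primary Sp7 regions. After matching the shares were 11.2% and 2.17%, a difference of 8.99 percentage points that was positive on 19 of 20 chromosomes and negative on 0. Chromosomes come from the same libraries and are no replicates, here and below, and chromosome X held 1 Sp7 region without Dlx5. In the first 20% of the Sp7 regions the shares were 46.4% of 976 with Dlx5 and 28.6% of 28 without, and in the second 20% they were 16.5% of 890 and 0 of 114. In the last 20% they were 7.99% of 701 and 1.32% of 302. Cut into parts of 10%, the second part held 33.5% with Dlx5 and 33.3% without, the latter of 18 regions. Single lists, paired in 4 ways, gave 3.57 to 7.29 points, all in the same direction and all smaller.

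Sp1 went the other way, and the gap in Sp7mut shrank once position was matched. Sp1 met 24.5% of Sp7 regions with Dlx5 and 47.7% of those without at matched position, a difference of -23.2 points with the same sign on 20 of 20 chromosomes. Over single lists it was between -15.0 and -11.5 points. With the longer Sp1 list alone as the readout it was -10.1 points, and where at least 50% of each peak had to be covered -7.43. For Sp7mut the unmatched shares were 71.5% and 59.1%, and the matched shares were 59.6% and 59.1%. That matched difference of 0.517 points was smaller than the SD over single lists of 2.84 points (n = 4 pairs), with 10 chromosomes on each side. The pairs of single lists themselves gave 2.47 to 7.88 points, so the size and sign for Sp7mut are not settled here.

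Among Sp7 regions with Dlx5, the shares of primary Sp7 and Sp1 also differed with the place of the Dlx5 region. This division was chosen after the values had been seen. The 4236 regions were divided into 3 equal groups of 1412 by the place of the Dlx5 region: early, up to place 2048, middle, up to place 7515, and late. With the 5 parts of the Sp7 order weighted equally, primary Sp7 met 34.1% of Sp7 regions with early Dlx5, 11.8% with middle Dlx5 and 3.20% with late Dlx5. Sp1 met 8.51%, 25% and 57.0% of the same groups. Sp7mut met 74.7%, 66.8% and 69.9%. The late minus early difference was 48.5 points for Sp1 and -30.9 points for primary Sp7, each with the same sign on 20 of 20 chromosomes. Pairs of single lists gave 24.0 to 43.3 points for Sp1 and -29.9 to -13.6 points for primary Sp7, and Sp7 list 1 gave the smaller sizes. Without Sp7 replicate 2, so that Sp7 list 1 stood alone, the differences were 22.5 and -15.7 points.

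Sp7 regions with late Dlx5 had shares whose intervals overlapped those of regions with no Dlx5 peak. Without position matching, primary Sp7 met 2.55% of Sp7 regions with late Dlx5 (interval 1.79 to 3.51) and 1.75% of those without any Dlx5 peak (4 of 229, interval 0.478 to 4.41). Sp1 met 48.6% and 51.5% (intervals 45.9 to 51.2 and 44.9 to 58.2). With the 5 parts of the Sp7 order weighted equally, the Sp1 shares were 57.0% and 45.8%, the latter with 6 regions in its smallest part. In the first 20% of Sp7 regions, Sp1 met 91.2% of the 102 regions with late Dlx5 and 11.3% of the 717 with early Dlx5. Ranked by peak width in place of row order, both differences turned, to -7.14 points for Sp1 and 11.3 for primary Sp7, so the pattern was seen in row order and not in width order.

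**Figure D3:**
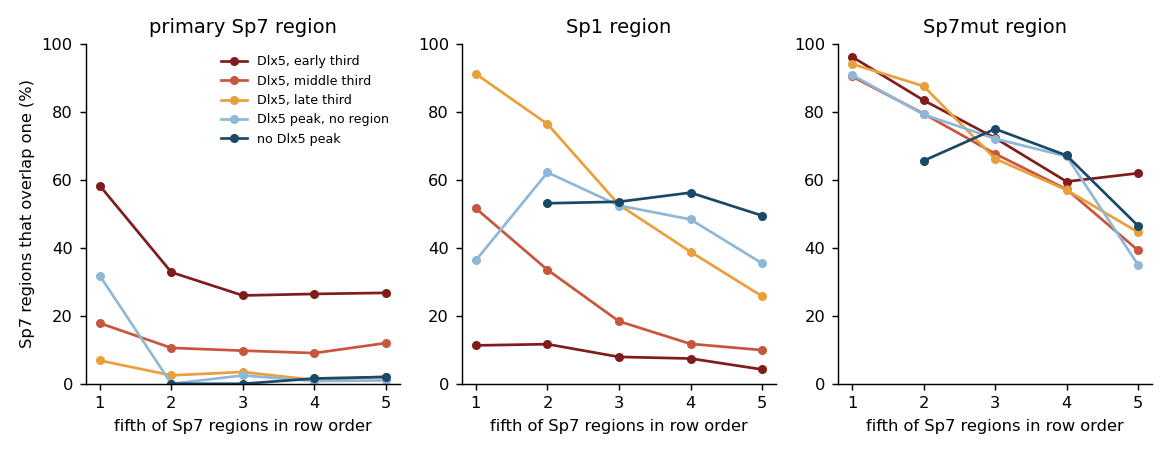
The vertical axes give the percentage of Sp7 regions that overlap a primary Sp7 (left), Sp1 (middle) or Sp7mut region (right), over successive 20% parts of the Sp7 regions in row order, for 5 states of Dlx5 at the region. Points of fewer than 20 regions are left out. Early Dlx5 (darkest red) lies highest for primary Sp7, from 58.3% to 26.8%, and lowest for Sp1, from 11.3% to 4.23%, while the lines for Sp7mut cross.

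The position of a shared region in one factor's list only partly followed its position in the other. Across the 4236 regions the Spearman correlation of positions was 0.692 between the Sp7 lists and 0.896 between the Dlx5 lists. Between factors it was 0.577 and 0.550 for Sp7 list 2 and 0.418 and 0.310 for Sp7 list 1. These describe regions of 4 libraries that share an input, and carry no test. Of the first 848 shared regions in Sp7 order, 87.9% stood in the first 20% of the Dlx5 regions, against 30.9% of the last 847. Divided into 5 parts by Dlx5 position minus Sp7 position, the shared regions in which Sp7 stood earliest relative to Dlx5 were Sp1 regions in 68.1% of cases and primary Sp7 regions in 4.13%. In the opposite part, where Dlx5 stood earliest relative to Sp7, the shares were 9.67% and 15.6%. Over all 4236 they were 27.1% and 19.2%. Primary Sp7 was highest between the extremes, at 39.4% in the part where the positions differed least and 23.6% in the part next to it toward earlier Dlx5. The parts also differ in Sp7 position, with medians of 24.5% of the list where Sp7 stood earliest relative to Dlx5 and 57.7% at the opposite end. In the part where the positions differed least both factors stood early, with medians of 6.30% (Sp7) and 4.49% (Dlx5). In the part next to it toward earlier Dlx5 they were 19.7% and 8.85%. An early position and a small difference of positions were thus not separated here.

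**Figure D4:**
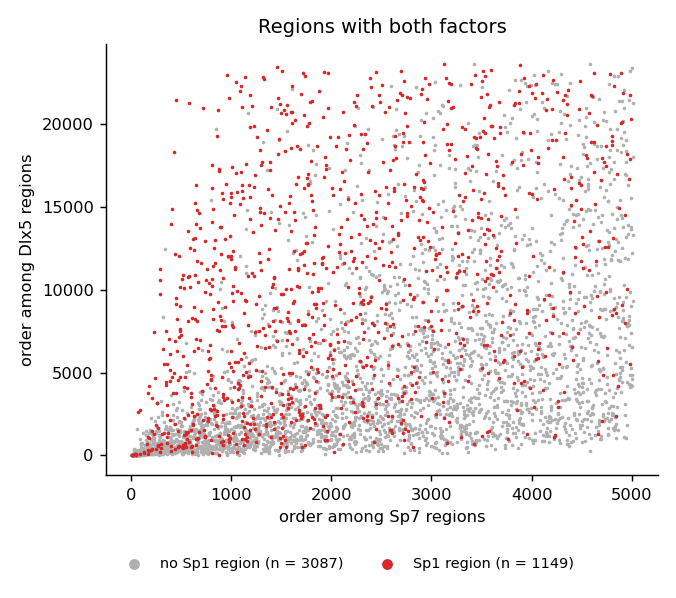
Each point is 1 of the 4236 regions with both factors, at its order among the Sp7 regions (horizontal) and among the Dlx5 regions (vertical), in red where it overlaps an Sp1 region (1149) and in grey where it does not (3087), with red drawn on top. Red points fill the upper left, where Sp7 stands early and Dlx5 late, and grey points fill the band along the bottom.

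Dlx5 regions with Sp7 were met more often by Sp1 and Sp7mut than those without. At matched Dlx5 position, Sp1 met 26.8% of Dlx5 regions with Sp7 and 6.00% of those without, a difference of 20.8 points on 20 of 20 chromosomes and of 18.1 to 20.3 points over single lists. It was 34.2 points with Sp1 list 2 alone as the readout and 13.6 with the earlier 50% of the rows of each list. Sp7mut met 71.3% and 20.9%, a difference of 50.4 points with 28.3 to 52.9 over single lists. Graded by the place of the Sp7 region, and with the 5 parts of the Dlx5 order weighted equally, Sp1 met 67.4% of Dlx5 regions with early Sp7 (up to place 1482), 46.9% with middle Sp7 (up to place 3143) and 26.8% with late Sp7. It met 16.4% of those with an Sp7 peak but no region, and 3.44% of those with no Sp7 peak. Sp7mut followed the same order, at 93.0%, 73.2%, 50.6%, 26.3% and 7.74%. Primary Sp7 met 13.6%, 6.41%, 5.33%, 2.95% and 4.85% of the same groups, so its lowest share was at regions with an Sp7 peak but no region. The smallest of these cells held 28 regions, for early Sp7 in the last 20% of the Dlx5 order.

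The share of primary Sp7 at Dlx5 regions depended on how finely position was matched. In 5 parts the shares were 19.2% with Sp7 and 7.61% without, a difference of 11.6 points. In 10 parts the difference was 7.01 and in 50 parts 3.83 points. Among the first 474 Dlx5 regions 66.4% of the 429 with Sp7 and 42.2% of the 45 without were primary Sp7 regions (intervals 61.7 to 70.9 and 27.7 to 57.8). In the part of like size that ended at place 2369 the shares were 15.0% of 207 and 12.4% of 267, with overlapping intervals. The gap did not shrink steadily. In the part that ended at place 3790 the shares were 18.7% of 139 with Sp7 and 10.1% of 335 without. In the part that ended at place 4737 they were 5.36% of 112 and 8.29% of 362. The intervals overlapped in both parts. Pairs of single lists gave 0.575 and 1.88 points with Sp7 list 1 and 13.0 and 11.6 points with Sp7 list 2, and without Sp7 replicate 2 the difference was 0.216 points. All 4 pairs were positive (SD 6.42 points), and the size depended on which Sp7 list was used. Of the 12429 Dlx5 regions with no Sp7 peak of either cell line list, 437 (3.52%) were Sp7 regions in primary osteoblasts, below the 6.12% over all Dlx5 regions.

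The Sp7 lists differed in the kind of Dlx5 region they added. Dlx5 regions with a peak of Sp7 list 1 only numbered 6466, of which 1.69% were primary Sp7 regions and 16.6% were Sp1 regions. Those with a peak of list 2 only numbered 455, of which 18.7% were primary Sp7 regions and 5.05% Sp1 regions. Over all Dlx5 regions these shares were 6.12% and 11.6%. At matched Dlx5 position, the primary Sp7 shares were 1.86% and 11.9% and the Sp1 shares 16.6% and 5.98%. Sp7 list 1 is 3.07 times as long as list 2, and the part of list length in this difference was not tested.

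At shared regions, peak midpoints of the factors lay slightly farther apart than those of replicates. These regions were chosen for overlap, which by itself limits all of these distances. The distance to be found from overlap alone was not computed, so closeness as such is not a result here. At the 4236 shared regions the median distance was 24.5 bp between the Sp7 lists, 21.5 bp between the Dlx5 lists and 25 to 28 bp over the 4 pairs between factors. Distances of at most 50 bp were found in 72.8% and 76.7% of regions between replicates, and in 68.3% to 70.3% between factors. Both replicate values stood on one side of all 4 values between factors, but Sp7 list 1 to Dlx5 list 1, at 25 bp, was only 0.5 bp above the Sp7 replicates. Distances above 100 bp were found in 10.6% and 9.89% of regions between replicates and in 14% to 15.2% between factors. All median distances grew along the shared regions in Sp7 order. In the first 20% of these the medians were 11.5 and 12.5 bp between replicates and 12.5 to 14 bp between factors. In the last 20% they were 28 bp (Dlx5 replicates), 42.5 bp (Sp7 replicates) and 39.5 to 45 bp (between factors). Overlapping peaks within the first 5000 rows of each list had medians of 20.5 bp between Sp7 lists, 14.5 bp between Dlx5 lists and 17.5 to 21 bp between factors. In both of these cases the Sp7 replicates fell within the range between factors.

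**Figure D5:**
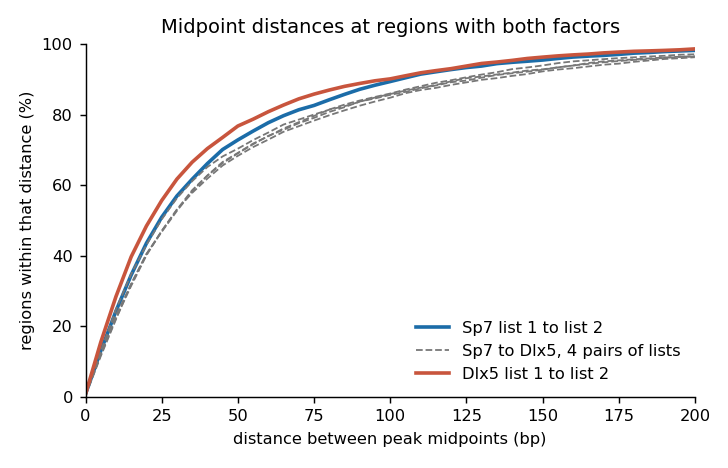
The vertical axis gives the percentage of the 4236 regions with both factors whose peak midpoints lie within the distance on the horizontal axis (bp). The Dlx5 replicates (solid red) and Sp7 replicates (solid blue) reach 76.7% and 72.8% at 50 bp, and the 4 pairs between factors (dashed) reach 68.3% to 70.3%.

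The distance between replicate peaks was also compared at regions with and without the other factor. Sp7 replicates lay 24.5 bp apart (median) at regions with Dlx5 and 35 bp at regions without, but at matched position the values were 34.0 and 36.4 bp. That difference of -2.41 bp turned to 0.601 bp when Dlx5 replicate 2 was left out. It was -13.8 bp where at least 50% of each peak had to be covered and -13.3 bp with regions ranked by width. For Dlx5 replicates the medians were 21.5 bp with Sp7 and 27 bp without. At matched position the order turned, to 24.3 bp with Sp7 and 21.7 bp without, higher with Sp7 on 16 of 20 chromosomes, and where at least 50% of each peak had to be covered the difference was -1.64 bp, shorter with Sp7. In the first 20% of the Dlx5 regions the medians were 14.5 bp with Sp7 and 16.5 bp without, and in the last 20% they were 48.5 and 37 bp. Widths at matched position differed by 11.4 bp at most, in Sp7 list 1, where peaks at regions with Dlx5 were narrower (169.6 against 181.0 bp), and with Dlx5 taken from either list alone that difference lay between -6.45 and 5.86 bp.

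Regions at the extremes of the orders are given by their mm9 positions, and no annotation of that build was used here, so no gene is named. The 10 regions earliest for both factors together were all primary Sp7 and Sp7mut regions, and 2 of the 10 were Sp1 regions. Over all 4236 shared regions the shares were 19.2% (primary Sp7), 71.5% (Sp7mut) and 27.1% (Sp1). For Sp7 regions with Dlx5 in the first 20% of the Sp7 order they were 46.4%, 95.1% and 26.1%. One of them, chr19:23458791-23458957, stood in rows 6 and 2 of the Sp7 lists and in row 2 of both Dlx5 lists, with mean midpoints of the factors 4.25 bp apart. At chr2:102623004-102623142 the rows were 9 and 6 for Sp7 and 28 and 15 for Dlx5, and the mean midpoints lay 1.5 bp apart. In 9 of these 10 regions the factors' mean midpoints were at most 15.5 bp apart, and in the other, chr16:27195634-27196017, they were 69 bp apart in a region of 384 bp.

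The 5 shared regions in which Sp7 stood furthest ahead of Dlx5 were all Sp1 and Sp7mut regions, and 0 were primary Sp7 regions. They came from the part of 847 shared regions with Sp7 earliest relative to Dlx5, where the shares were 68.1% (Sp1), 79.2% (Sp7mut) and 4.13% (primary Sp7). At chr1:192886745-192886898 the Sp7 rows were 472 and 527, and the Dlx5 rows were 27859 and 23999. At chr3:51287904-51288086 Sp7 stood in rows 810 and 1355 and Dlx5 in rows 24055 and 34415. Of the 5 shared regions in which Dlx5 stood furthest ahead, 0 were Sp1 regions, 2 were primary Sp7 regions and 3 were Sp7mut regions. In the opposite part of 848 regions, from which these came, the shares were 9.67%, 15.6% and 51.5%. The foremost, chr4:88640565-88640872, had Dlx5 rows 1723 and 698 and Sp7 rows 17964 and 4622.

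Among the 5 earliest Sp7 regions without Dlx5, 2 were Sp1 regions and 1 was a primary Sp7 region. Over all 782 such regions the shares were 47.7% and 2.17%, and over the 28 in the first 20% of the Sp7 order 32.1% and 28.6%. The earliest, chr17:39982664-39983105, stood in Sp7 rows 23 and 70 and held a Dlx5 peak of list 2 alone, in row 208, with the nearest Dlx5 region 538 bp away. A Dlx5 peak of list 2 alone was also held by chr10:119645697-119645840 (row 7916) and chr2:16412470-16412643 (row 872). Peaks of both Dlx5 lists, in rows 2097 and 7205, met chr8:20020315-20020437 but made up no control-free Dlx5 region overlapping it. Only chr19:31157355-31157517 held no Dlx5 peak of either list, and it lay 65 bp from a Dlx5 region. The 5 earliest Dlx5 regions without Sp7 each held a peak of Sp7 list 1 and none of list 2. Of these, 4 were primary Sp7 regions and 0 were Sp1 regions. Over all 19426 Dlx5 regions without Sp7 the shares were 3.26% and 8.25%, and over the 45 among the first 474 Dlx5 regions 42.2% and 4.44%. At chr17:45210232-45210393 the Dlx5 rows were 64 and 84 and the Sp7 list 1 row was 468, and the region was number 91 among the 2097 primary Sp7 regions.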

How the data were processed

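FLAG ChIP-seq peak lists of 12 libraries were used, 4 of them central here. Per the labels, chromatin was crosslinked with 1% formaldehyde and sonicated, and the input library for each call is named there. Per the submitters' processing notes the positions refer to mm9; not given in the sources used here are aligner, peak caller and its threshold. The deposited lists hold 3 columns (chromosome, start, end) and no score or count, and were made per library. Peaks sharing at least 1 bp were merged. Intervals are 95% exact Clopper-Pearson intervals for counting error only. Positions are printed 1-based. The software was scipy 1.17.1, matplotlib 3.10.9, pandas 2.3.3, numpy 2.4.6 and Python 3.11.15. The matching was tested on simulated lists whose shares fell evenly along the rows. Those lists lacked the steep start of the Dlx5 list, so they do not show how well 5 parts match position there. Members, lists and comparisons were chosen with earlier results of these data known. Named regions were the earliest 10 with both factors, the earliest 5 of each factor without the other, and the 5 with the largest difference in position each way. Alternatives covered overlap, control peaks, replicates left out, ranking, list length, number of parts and readout lists. Motifs and genes at regions were not analysed here, since no sequence or annotation of mm9 was used.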

Additional observations from a re-analysis of the deposited data

How the results depend on the processing

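Of 136 alternative values, 74 kept their sign and stayed within 1 SD of the value given above, and 51 kept their sign and moved by more. A further 11 changed sign, by whatever amount. The SD was taken over pairs of single lists, and for replicate distances over the 2 lists of the other factor. No test was involved, and the cause was not tested. In what follows, differences are in percentage points, with minus without the other factor at matched position. Where at least 50% of each peak had to be covered, 66.8% of Sp7 regions met Dlx5. The difference at Sp7 regions was then 12.1 for Sp7mut and -7.43 for Sp1, and that for Sp1 at Dlx5 regions 14.2. The late minus early difference for Sp1 was 35.6, the midpoint distance between factors 15.5 bp, and the replicate distances -13.8 bp (Sp7) and -1.64 bp (Dlx5). Ranking by width gave 6.8% overlap among the first 1000 regions, differences of 15.8, 11.8 and -19.5 (primary Sp7, Sp7mut, Sp1) at Sp7 regions and 18.7 (Sp1) at Dlx5 regions. The midpoint distance was then 74 bp, the replicate distances -13.3 and -4.69 bp, and the late minus early differences -7.14 (Sp1) and 11.3 (primary Sp7). Without parts, the differences were 17.0, 12.5 and -20.6 at Sp7 regions and 18.6 for Sp1 at Dlx5 regions, and the replicate distances -10.5 and -5.5 bp. In 10 parts, Sp1 at Dlx5 regions gave 24.0 and the Dlx5 replicate distance 5.18 bp. In 50 parts, added after seeing the data, Sp7mut gave -0.18 at Sp7 regions, primary Sp7 3.83 and Sp1 24.8 at Dlx5 regions, and the replicate distances were -3.69 and 6.53 bp. The earlier 50% of rows gave -3.91 for Sp7mut and -34.2 for Sp1 at Sp7 regions, 13.6 for Sp1 at Dlx5 regions and 0.348 bp for the Sp7 replicate distance. A peak of either Dlx5 list gave 95.4% overlap and -1.77 for Sp7mut. The first 5000 regions gave 46.8% overlap, and the midpoint distance, 18.8 bp over the first 5000 rows, was 11.5 bp over the first 1000 and 30.3 bp over all. Readout lists taken alone, also added later, gave for Sp1 at Dlx5 regions 21.9 (list 1) and 34.2 (list 2), and with list 2 also 3.66 (Sp7mut) and -10.1 (Sp1) at Sp7 regions and 27.7 for the late minus early Sp1 difference. Leaving out each replicate in turn gave 59.7 to 90.1% overlap over all regions and 47.9 to 57.7% over the first 1000. Differences at Sp7 regions were then 4.52 to 8.43 (primary Sp7), -0.267 to 7.71 (Sp7mut) and -23.1 to -14.2 (Sp1), and at Dlx5 regions 0.216 to 12.1 (primary Sp7) and 19 to 22.1 (Sp1). Late minus early differences were 22.5 to 49.7 (Sp1) and -31.6 to -15.7 (primary Sp7), and midpoint distances 17.8 to 20.3 bp. For replicate distances only lists of the other factor were left out, which gave -0.889 to 0.601 bp (Sp7) and 3.0 to 4.61 bp (Dlx5). Keeping GFP control peaks moved none of the 12 results by more than 1 SD. No paired analysis was possible because the results come from overlaps of lists and from no test. Without read counts or scores, depth cannot be set against any share.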
